A study of Mus musculus with 16 samples.

Results

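Genes that mark macrophages and dendritic cells of the marrow were measured in RNA from LSK cells, which lack lineage markers and carry Sca1 and Kit. This sorted fraction of mouse bone marrow contains the haematopoietic stem cells and the progenitors closest to them. The 10 genes were C1qa, C1qb, C1qc, Vcam1, Slc40a1, Cd68, Adgre1, Mrc1, Xcr1 and Siglech, found by symbol among 30141 gene identifiers. They were chosen by name with earlier results of these data known. Cd68, Slc40a1 and Xcr1 had been picked out by their measured differences between azacitidine and NaCl in R882H, so values in that comparison are given as a description with no test. The 16 libraries formed 4 groups: 5 of R882H with azacitidine, 4 of R882H with NaCl, 3 of WT with azacitidine and 4 of WT with NaCl.

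R882H mice carried a human DNMT3A allele with that mutation at the mouse locus behind a floxed stop cassette, next to a WT mouse allele. Excision was by Mx1-Cre, a transgene under an interferon-inducible promoter that is active in blood cells and other tissues. WT mice expressed WT mouse DNMT3A. The labels describe Cre-positive and Cre-negative donors that all received poly(I:C), an inducer of interferon, at 15 µg per g on 3 days, and also give a schedule of 400 µg without saying which animals had it. After 4 weeks donor marrow (CD45.2) was mixed 1:1 with WT CD45.1 marrow and placed in CD45.1 recipients. From 2 weeks after transplantation the recipients received either azacitidine, a cytidine analogue that depletes DNA methyltransferases from dividing cells, at 2.5 mg per kg or the vehicle, 0.9% NaCl, for 2 weeks with 5 days on and 2 off. The age of the mice, and whether donor cells were parted from CD45.1 cells in the sort, are not given in the sources used here. Nothing in the labels says that replicates came from separate animals, so p-values measure only the spread between these libraries.

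C1q is the recognition subunit of the classical complement pathway, built from the A, B and C chains, and in most tissues macrophages are its main source. Marrow macrophages in erythroblastic islands hold erythroblasts through VCAM1, engulf expelled nuclei and return iron to the plasma through ferroportin, the product of Slc40a1. XCR1 marks conventional dendritic cells of type 1, which cross-present antigen, and Siglec-H marks plasmacytoid dendritic cells, which make type I interferon. An LSK sort selects against mature cells of all these kinds. In bulk RNA of this kind, fewer cells of a type and less RNA per cell cannot be told apart.

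The 3 C1q genes lie side by side on the minus strand of chromosome 4, within 18675 bp (chr4:136880129-136898803, GRCm38). Promoters of C1qb and C1qc are shown because these neighbouring genes changed level together from library to library, and that of Cd68 because it was the most abundant of the 10 genes and separated 2 groups of libraries. Each runs from 250 bases before to 50 bases after the RefSeq start site (GRCm38.p6) and is written 5′ to 3′ on the gene's strand. The positions are chr4:136886151-136886450 for C1qb, chr4:136892865-136893164 for C1qc and chr11:69666121-69666420 for Cd68, all on the minus strand.
C1qb: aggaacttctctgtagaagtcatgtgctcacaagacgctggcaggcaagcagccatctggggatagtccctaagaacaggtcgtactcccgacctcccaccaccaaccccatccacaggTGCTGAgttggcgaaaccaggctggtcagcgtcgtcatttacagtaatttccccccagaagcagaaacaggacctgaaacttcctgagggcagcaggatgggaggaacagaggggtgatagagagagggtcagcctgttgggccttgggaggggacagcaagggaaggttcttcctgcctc
C1qc: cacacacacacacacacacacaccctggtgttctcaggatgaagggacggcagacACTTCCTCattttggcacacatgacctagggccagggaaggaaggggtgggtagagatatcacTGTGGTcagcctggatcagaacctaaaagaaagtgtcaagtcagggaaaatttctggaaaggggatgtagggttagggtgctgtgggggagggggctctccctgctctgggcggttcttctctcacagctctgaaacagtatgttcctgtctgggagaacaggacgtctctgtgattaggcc
Cd68: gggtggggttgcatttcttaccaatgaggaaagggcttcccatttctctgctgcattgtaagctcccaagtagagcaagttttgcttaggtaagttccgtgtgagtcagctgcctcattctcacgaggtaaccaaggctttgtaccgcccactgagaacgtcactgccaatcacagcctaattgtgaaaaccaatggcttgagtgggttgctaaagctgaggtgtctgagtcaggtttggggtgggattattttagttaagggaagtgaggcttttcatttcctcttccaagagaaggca

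Capitals mark matches, on either strand, to 4 motifs: GAGGAAGT for PU.1, TGTGGT for RUNX, TGCTGA for a MAF half-site and GAAANNGAA for an interferon response element. C1qb held 1 MAF half-site, starting at position -131 from the start site, a motif found in 19.5% of 32851 mouse promoters of the same length. C1qc held 1 PU.1 match at -195 and 1 RUNX match at -132, found in 3.20% and 16.8% of promoters. None of these matches overlapped another. Cd68, like Mrc1 and Xcr1, held none of the 4 motifs in this window, and Siglech held 1 RUNX match at -115. The interferon element, held by 8.56% of promoters, was in none of the 6 promoters searched. The CG pairs that DNA methyltransferases act on numbered 6 in C1qb, 3 in C1qc, 4 in Cd68, 3 in Mrc1, 6 in Xcr1 and 2 in Siglech, against a median of 7 over all promoters. C1qa, Vcam1, Slc40a1 and Adgre1 have no entry in the promoter table used.

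Total counts ran from 35860445 to 56012766 per library, and every one of the 10 genes passed the filter that kept 18341 genes for testing. A count of 0 allowed a level of up to 0.0549 to 0.0886 CPM, the value of 3 counts. The sort markers were abundant: Kit averaged 830 ± 248 CPM in R882H with azacitidine, 842 ± 373 in R882H with NaCl, 555 ± 98.1 in WT with azacitidine and 723 ± 336 in WT with NaCl (SD, n = 5, 4, 3 and 4). Ly6a, which encodes Sca1, averaged 117 ± 29.3, 134 ± 100.4, 71.4 ± 69.7 and 82.6 ± 38.9 CPM in the same order, and ran from 30.6 to 275 CPM over the 16 libraries. Counts of mouse Dnmt3a had group means of 96.2, 90.5, 105 and 96.7 CPM in the same order. They do not check the genotype, since the files do not say where reads from the human allele were placed. Libraries 1 and 2 of R882H with NaCl stood apart by summed marker levels. Their LSK marker sums were 3126 and 2242 CPM, against 3526 to 5555 CPM in the other 14 libraries. Their erythroid marker sums were 4134 and 11257 CPM, against 1181 to 2342 CPM. By the mean log2 CPM of the LSK list only library 2 was lowest, at 6.37. Library 1 had 7.18, within the 6.65 to 7.63 of the other 14 libraries, and the highest Ly6a, 275 CPM. Results that rest on libraries 1 and 2 of R882H with NaCl are given with and without them, in a fit chosen after seeing the data.

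Levels per length differed widely. By the median deposited FPKM over the 16 libraries, Cd68, a glycoprotein of lysosomes and endosomes in macrophages and their precursors, came first at 20.6. C1qb followed at 1.11, Slc40a1 at 1.03, C1qc at 0.867 and C1qa at 0.720. Adgre1, the F4/80 receptor, had 0.266, Vcam1 0.184, Siglech 0.150, Xcr1 0.0568 and Mrc1, the mannose receptor of tissue macrophages, 0.0429. The lowest Cd68 library, at 13.3 FPKM, lay above every library of the other 9 genes. After Cd68, each gene's range over libraries overlapped that of the next gene in this order.

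**Figure D1:**
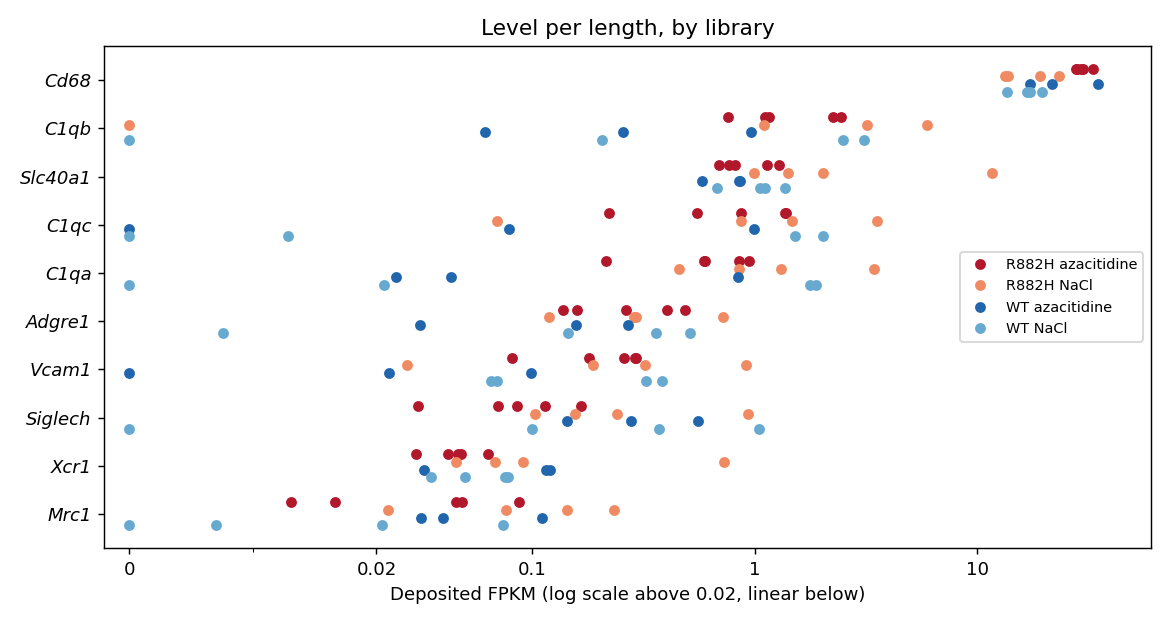
Deposited FPKM (x axis, logarithmic above 0.02 and linear below) of the 10 genes in order of their median, with 1 point per library coloured by group. Cd68 lies between 13.3 and 34.8 FPKM in all 16 libraries, while C1qa, C1qb, C1qc, Vcam1, Mrc1 and Siglech are each at 0 in 1 or 2 libraries.

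Some markers of mature marrow macrophages were at or near 0 and others were not. Siglec1 (CD169) ran from 0 to 0.160 CPM and Timd4 from 0 to 0.187 CPM over the 16 libraries, and both were under the filter, as were Vsig4, Msr1 and Marco. Csf1r, the receptor for macrophage colony-stimulating factor, ran from 13.2 to 38.9 CPM and the scavenger receptor Cd163 from 11.9 to 23.3 CPM. Of 19 genes on a list of marrow and island macrophage markers, 17 passed the filter. The label macrophage thus rests on low counts for most of the genes, apart from Cd68 and Slc40a1.

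The C1q chains varied widely between libraries of the same group. C1qb, the B chain, had 2.49, 2.75, 0.871, 1.31 and 1.26 CPM in R882H with azacitidine, against 0, 1.28, 6.65 and 3.56 CPM in R882H with NaCl. It had 0.0719, 0.298 and 1.10 CPM in WT with azacitidine, against 0.235, 0, 3.47 and 2.83 CPM in WT with NaCl. In all groups but R882H with azacitidine, libraries 1 and 2 were low and the later ones high. C1qc, the C chain, followed the same order, with 2.73, 2.73, 0.447, 1.73 and 1.11 CPM in R882H with azacitidine, against 0.148, 1.80, 7.01 and 2.91 CPM in R882H with NaCl. In WT it had 0, 0.162 and 2.03 CPM with azacitidine, against 0, 0.0267, 4.03 and 3.07 CPM with NaCl. C1qa, the A chain, had 1.00, 0.915, 0.235, 0.642 and 0.642 CPM in R882H with azacitidine, against 0.974, 0.514, 3.69 and 1.39 CPM in R882H with NaCl, and 0.0480, 0.0271 and 0.924 CPM in WT with azacitidine, against 0.0235, 0, 2.00 and 1.92 CPM in WT with NaCl. For each chain the azacitidine and NaCl libraries overlapped in both genotypes.

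Summed over the 3 chains, libraries 1 and 2 of R882H with azacitidine had 6.22 and 6.39 CPM, above the same numbers of R882H with NaCl at 1.12 and 3.60 CPM. Libraries 3, 4 and 5 of R882H with azacitidine had 1.55, 3.68 and 3.01 CPM, below libraries 3 and 4 of R882H with NaCl at 17.4 and 7.87 CPM. The sign of the azacitidine difference in R882H thus turned with the library number. In WT, libraries 1 and 2 had 0.120 and 0.487 CPM with azacitidine and 0.258 and 0.0267 CPM with NaCl, and library 3 had 4.06 CPM with azacitidine, against 9.49 CPM in library 3 and 7.82 CPM in library 4 with NaCl. What the numbers stand for is not given in the sources used here, and this split was chosen after seeing the data.

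**Figure D2:**
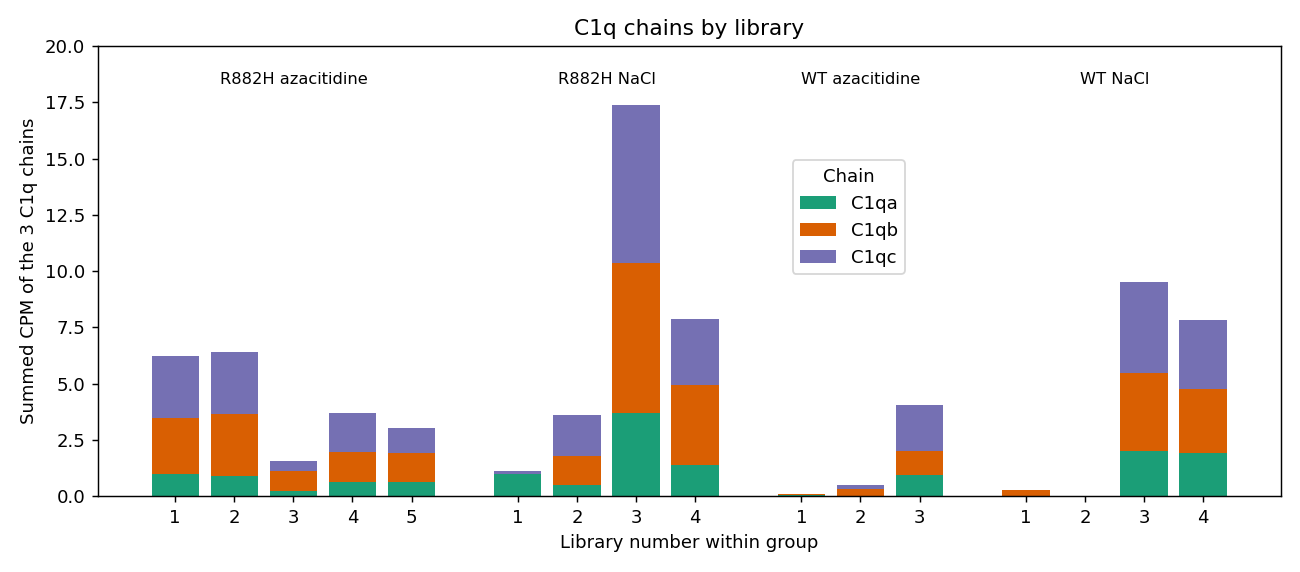
Summed CPM of C1qa, C1qb and C1qc (y axis) in each of the 16 libraries, by group and library number, with 1 colour per chain. Libraries 1 and 2 are low and later numbers high in 3 groups, whereas in R882H with azacitidine libraries 1 and 2 are the highest, at 6.22 and 6.39 CPM.

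In the 11 libraries with at least 50 C1q reads, C1qa gave 14.3% to 24.6% of the reads, the smallest share in each. C1qc gave 28.8% to 50%. C1qb gave from 27.2% in library 3 of WT with azacitidine (exact binomial interval 20.5% to 34.9%) to 56.1% in library 3 of R882H with azacitidine (43.3% to 68.3%), and these intervals did not overlap. Library 1 of R882H with NaCl lay outside the C1qa range: of its 38 C1q reads, 33 were C1qa, 0 C1qb and 5 C1qc, so that C1qa made up 86.8% (exact binomial interval 71.9% to 95.6%). The 0 reads of C1qb allow a level of up to 0.0886 CPM there.

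Some other macrophage genes were split by library number much as C1q was, and some were not; these genes were chosen after their values were seen. Axl and Mertk, receptors for apoptotic cell clearance, and Cd5l, a secreted macrophage protein, were lower in libraries 1 and 2 than in later ones in the groups other than R882H with azacitidine. Axl had 5.16 to 5.20 CPM in libraries 1 and 2 of R882H with NaCl, against 23.7 to 27.6 CPM in libraries 3 and 4, and 3.76 to 5.87 against 21.8 to 23.0 CPM in WT with NaCl. In R882H with azacitidine Axl had 9.99 to 10.8 CPM in libraries 1 and 2 and 9.23 to 11.5 CPM in libraries 3 to 5. Adgre1 ran the other way in R882H with NaCl, at 1.00 to 2.57 CPM in libraries 1 and 2 and 0.396 to 0.981 CPM in libraries 3 and 4. Hmox1, which breaks down haem, overlapped there, at 4.52 to 7.76 and 6.93 to 9.19 CPM. Csf1r in WT with azacitidine had 28.4 and 38.9 CPM in libraries 1 and 2 and 13.2 CPM in library 3. Cd163 overlapped in WT with NaCl, at 18.5 to 20.7 and 16.4 to 20.7 CPM. The LSK marker sum was also lower in libraries 1 and 2 of the NaCl groups, at 2242 to 3126 CPM in R882H and 3656 to 3819 CPM in WT, against 5529 to 5555 and 5245 to 5312 CPM in libraries 3 and 4. The part of sort composition in the C1q levels was not tested.

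The genes whose deviations from group means were most like those of the C1q mean were Dmwd, Txnrd3, Ctnna1, Ifih1 and Zfp870. Their Pearson r over 16 libraries was 0.90 to 0.91, chosen as the highest among 11611 genes and given as a description. Dmwd had 52.9 and 60.4 CPM in libraries 1 and 2 of R882H with NaCl, against 103 and 95.6 CPM in libraries 3 and 4. These points share library depth and the same split by number, and without the 2 farthest libraries r was 0.85 to 0.88.

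Vcam1, the adhesion molecule that binds integrin on erythroblasts and progenitors, resembled C1q in its split. It had 2.34, 2.65, 0.753, 1.65 and 2.72 CPM in R882H with azacitidine, against 0.266, 1.80, 8.35 and 2.94 CPM in R882H with NaCl. WT libraries had 0.216, 0 and 0.924 CPM with azacitidine, against 0.611, 0.667, 3.49 and 3.00 CPM with NaCl. Only library 3 of WT with azacitidine lay within the NaCl range. The fitted log2 difference in WT was -2.34 ± 1.10 (SE), and it did not pass the threshold (edgeR adjusted p = 0.825). Between R882H and WT under azacitidine the log2 difference was 2.40 ± 1.08 (edgeR adjusted p = 0.533), with R882H library 3 below WT library 3. Without library 3 of WT with azacitidine these differences were -4.10 and 4.16.

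Slc40a1, which encodes the only known iron exporter of mammalian cells, ran from 5.58 to 18.8 CPM in 15 libraries and reached 113 CPM in 1. It had 10.4, 7.12, 7.72, 6.40 and 12.0 CPM in R882H with azacitidine, against 14.0, 113, 18.8 and 9.18 CPM in R882H with NaCl. In WT it had 8.32, 5.58 and 8.06 CPM with azacitidine, against 6.41, 10.3, 12.7 and 10.5 CPM with NaCl. Library 2 of R882H with NaCl held 6.00 times the next library of its group. That library also held 777 CPM of Klf1, a master regulator of erythroid genes, against 14.9 to 217 CPM elsewhere, and 11257 CPM summed over 15 erythroid markers. By mean log2 CPM of these markers, libraries 1 and 2 of R882H with NaCl were close, at 6.18 and 6.53, against 2.28 to 4.82 elsewhere. Library 1 held 217 CPM of Klf1 and more Hba-a1 than library 2, at 211 against 82.2 CPM. Its Slc40a1 was 14.0 CPM. Slc40a1 is also expressed by erythroid precursors.

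Without that library the mean of R882H with NaCl was 14.0 ± 4.83 CPM (SD, n = 3). The log2 difference of Slc40a1 between azacitidine and NaCl in R882H was -2.15 with it and -0.68 without it. Between R882H and WT under NaCl the log2 difference was 1.96, and 0.49 without that library; this comparison uses the same R882H libraries that the gene was chosen on and is given with no test. In WT, azacitidine against NaCl gave -0.44 ± 0.63 (edgeR adjusted p = 0.946). The part of erythroid cells in the Slc40a1 level was not tested.

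The genes most like Slc40a1 were Acsl1, Cyth3, Tlk1, Golm1 and Abcb10, with Pearson r of 0.93 to 0.95 over 16 libraries and 0.74 to 0.87 without the 2 farthest ones. Abcb10 is a mitochondrial transporter needed for haem synthesis. Acsl1 had 130 CPM in library 2 of R882H with NaCl, against 39.5 to 61.8 CPM in the other 15 libraries.

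Cd68 was the only one of the 10 genes whose groups did not overlap in any comparison. It had 36.2, 43.2, 38.4, 36.2 and 39.0 CPM in R882H with azacitidine, against 18.8, 18.0, 24.8 and 30.0 CPM in R882H with NaCl. All 5 azacitidine libraries lay above all 4 NaCl libraries, as did 1.09% of all genes tested, and since the gene was chosen on this comparison nothing is read from that. The log2 difference was 0.75 ± 0.20 (SE), and between 0.65 and 0.91 when any 1 library was left out. Without both libraries 1 and 2 of R882H with NaCl it was 0.49. In WT Cd68 had 23.3, 46.5 and 28.8 CPM with azacitidine, against 22.6, 22.7, 25.2 and 17.8 CPM with NaCl. These groups overlapped, with a log2 difference of 0.57 ± 0.23 (edgeR adjusted p = 0.825), and 0.23 without library 2 of WT with azacitidine. The genotypes differed by 0.05 ± 0.21 under NaCl and 0.23 ± 0.22 under azacitidine. These comparisons use the same R882H libraries that the gene was chosen on and are given with no test. In R882H with NaCl libraries 1 and 2 were the lowest for Cd68, whereas in WT with NaCl the lowest was library 4.

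Adgre1 had 1.34, 1.63, 0.471, 0.535 and 0.889 CPM in R882H with azacitidine, against 2.57, 1.00, 0.981 and 0.396 CPM in R882H with NaCl. WT libraries had 0.935, 0.108 and 0.539 CPM with azacitidine, against 0.493, 0.0267, 1.70 and 1.22 CPM with NaCl. The groups overlapped throughout, and the lowest adjusted p in a tested comparison was 0.697 (edgeR, R882H against WT under azacitidine, log2 difference 0.88 ± 0.87).

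Mrc1 had few reads. It had 0.0853, 0.110, 0.306, 0.578 and 0.321 CPM in R882H with azacitidine, against 0.531, 0.154, 1.53 and 0.937 CPM in R882H with NaCl. In WT it had 0.216, 0.271 and 0.744 CPM with azacitidine, against 0.0470, 0, 0.481 and 0.141 CPM with NaCl. Libraries 1 and 2 lay below the later ones in every group. The log2 difference between R882H and WT under NaCl was 2.22 ± 0.93 (edgeR adjusted p = 0.841), and that between azacitidine and NaCl in WT was 1.28 ± 0.98 (edgeR adjusted p = 0.890). Leaving out any 1 library moved the difference under NaCl to between 1.69 and 3.57, and that in WT to between 0.53 without library 3 of WT with azacitidine and 2.63 without library 3 of WT with NaCl.

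**Figure D3:**
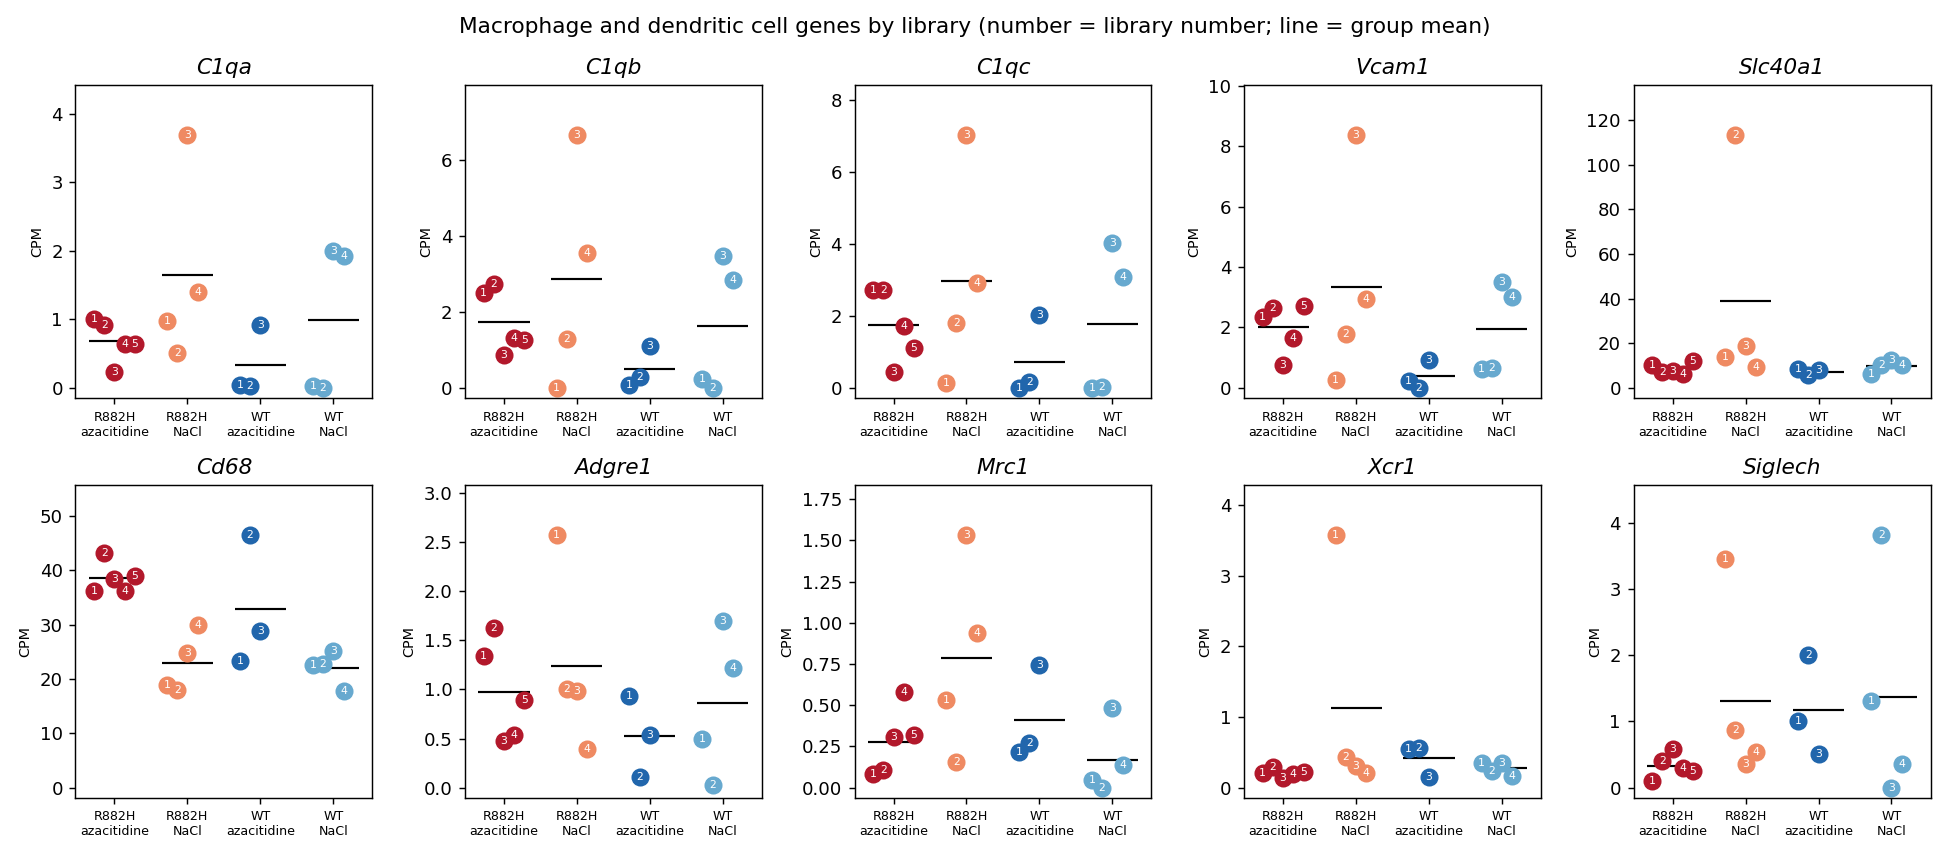
CPM (y axis, linear) of each of the 10 genes in the 4 groups, with 1 numbered point per library and a line at the group mean. Cd68 separates R882H with azacitidine from R882H with NaCl, while single libraries at 113 CPM (Slc40a1), 3.57 CPM (Xcr1) and 3.45 CPM (Siglech) lie far above the rest of R882H with NaCl.

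Xcr1, the chemokine receptor of type 1 dendritic cells, was low in all libraries but 1. It had 0.213, 0.293, 0.141, 0.193 and 0.222 CPM in R882H with azacitidine, against 3.57, 0.437, 0.311 and 0.208 CPM in R882H with NaCl. WT libraries had 0.551, 0.568 and 0.154 CPM with azacitidine, against 0.352, 0.240, 0.354 and 0.164 CPM with NaCl. Library 1 of R882H with NaCl held 8.18 times the next library of its group. The log2 difference between azacitidine and NaCl in R882H was -2.38, and -0.57 without that library. Between R882H and WT under NaCl it was 2.01, and 0.20 without that library, given with no test for the same reason as for Slc40a1.

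Library 1 of R882H with NaCl also held more of some genes of lymphoid and dendritic cells, named here after their values were seen. The T-cell receptor subunits Cd3e and Cd3d had 24.2 and 22.3 CPM there, against 0 to 3.00 and 0.141 to 2.41 CPM elsewhere. Cd8a, shared by T cells and type 1 dendritic cells, had 8.68 CPM, against 0 to 1.10 CPM. The chemokine Ccl5 had 39.9 CPM, against 2.23 to 9.74 CPM, and the transcriptional inhibitor Id2 had 100.3 CPM, against 11.4 to 23.8 CPM. Clec9a, a receptor for dead cells on type 1 dendritic cells, had 1.21 CPM there and 0.0941 to 0.682 CPM elsewhere. Over the T and NK cell list the mean log2 CPM was 3.86 there, against -0.020 to 1.6 in the other 15 libraries. The summed level of that list, which a few abundant genes carry, was 708 CPM there and 318 to 911 CPM elsewhere. Over the type 1 dendritic cell list, which includes Xcr1, the mean log2 CPM was 2.44 there, against 0.317 to 1.57 elsewhere. Its summed level was 325 CPM there and 167 to 368 CPM elsewhere. Irf8, which leads that list, had 142 CPM there, within 68.8 to 263 CPM over the 16 libraries. The part of these cells in the Xcr1 level was not tested.

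The genes most like Xcr1 were Id2, Lmo4, AI837181, Gpx3 and Ccl5, with Pearson r of 0.88 to 0.92 over 16 libraries and 0.63 to 0.88 without the 2 farthest ones. Lmo4 had 75.3 CPM in library 1 of R882H with NaCl, against 31.8 to 72.3 CPM in the other 15 libraries.

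**Figure D4:**
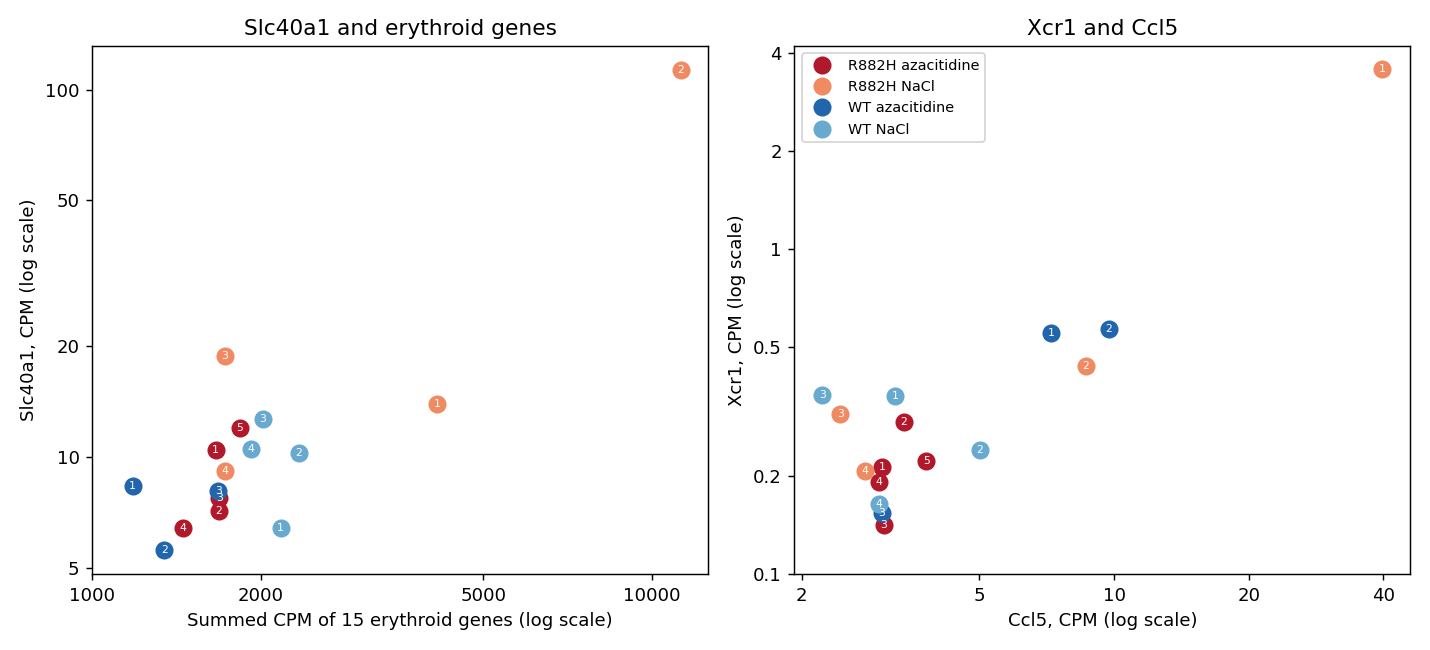
Left, Slc40a1 CPM against the summed CPM of 15 erythroid genes, and right, Xcr1 CPM against Ccl5 CPM, on logarithmic axes, with 1 numbered point per library coloured by group. Library 2 of R882H with NaCl stands alone at 113 and 11257 CPM on the left, and library 1 of that group at 3.57 and 39.9 CPM on the right.

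Siglech, the lectin of plasmacytoid dendritic cells, had 0.107, 0.403, 0.588, 0.300 and 0.247 CPM in R882H with azacitidine, against 3.45, 0.873, 0.359 and 0.541 CPM in R882H with NaCl. In WT it had 1.01, 2.00 and 0.513 CPM with azacitidine, against 1.32, 3.81, 0 and 0.351 CPM with NaCl. In 3 groups libraries 1 and 2 lay above the later ones, the opposite of the C1q chains, and R882H with azacitidine showed no such split. Between R882H and WT under azacitidine the log2 difference was -1.83 ± 1.02 (edgeR adjusted p = 0.542). Between R882H and WT under NaCl it was -0.07 ± 0.98 (edgeR adjusted p = 0.999). For azacitidine against NaCl in R882H it was -1.97, and -0.84 without library 1 of R882H with NaCl.

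Ccr9, a chemokine receptor of plasmacytoid dendritic cells and thymus-seeding progenitors, had 28.5 CPM in library 1 of R882H with NaCl, against 2.01 to 11.1 CPM elsewhere. Siglech was also high in library 2 of WT with NaCl, where Ccr9 had 6.40 CPM. Bst2, on the plasmacytoid list, had 116 CPM there, within 63.0 to 117 CPM over the 16 libraries. The mean log2 CPM of that list, which includes Siglech, was highest there, at 3.86, against 2.31 to 3.70 elsewhere. The genes most like Siglech were Chchd5, Mrpl24, Mvb12a, Trmt61b and Nudt2, with Pearson r of 0.88 to 0.92 over 16 libraries and 0.85 to 0.88 without the 2 farthest ones. Chchd5 had 26.6 CPM in library 2 of WT with NaCl and 16.9 CPM in library 3, where Siglech had 0 reads and could have been up to 0.0760 CPM.

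None of the 10 genes was called in any comparison at an adjusted p under 0.05 (edgeR). Cd68, Slc40a1 and Xcr1 had been chosen on azacitidine against NaCl in R882H. For these genes nothing is read from this in comparisons that hold those R882H libraries. For azacitidine against NaCl, 1 gene in R882H (0.00545%) and 0 genes in WT (0%) of 18341 were called, and 0 (0%) differed in their response between the genotypes. For R882H against WT, 1 gene was called under azacitidine (0.00545%) and 1 under NaCl (0.00545%). At an unadjusted p under 0.05 the calls over all genes numbered 1227, 1104 and 1114 for these azacitidine comparisons and 1713 and 1026 for the genotype ones.

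**Figure D5:**
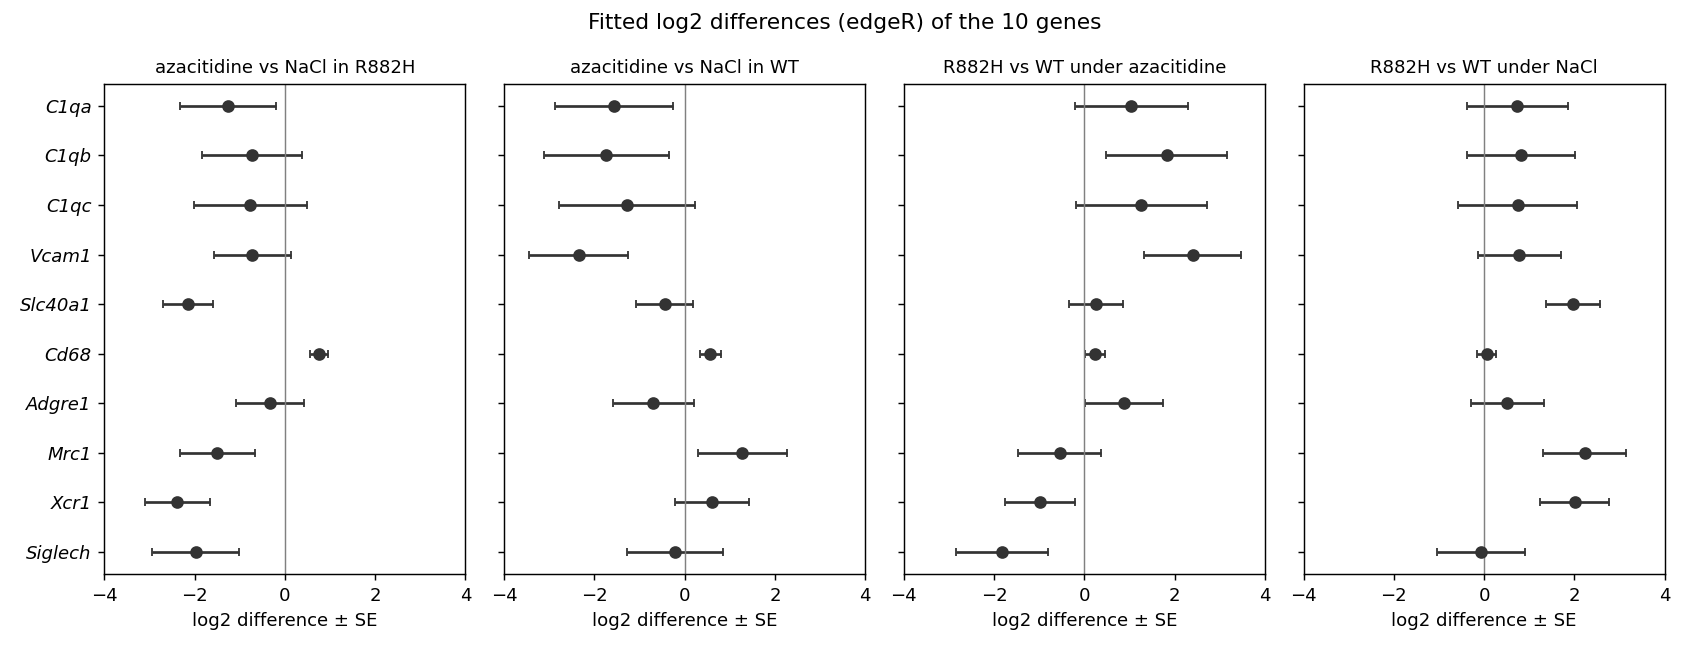
Fitted log2 differences (x axis) with standard errors for the 10 genes in azacitidine against NaCl within each genotype and in R882H against WT under each treatment. Positive values are higher with azacitidine or in R882H. Standard errors of the C1q chains exceed 1 log2 unit in all 4 panels, while that of Cd68 is between 0.20 and 0.23.

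Large fitted differences were common among the 10 genes, which were mostly of low count. For azacitidine against NaCl in R882H, 5 of 10 genes had a log2 difference of 1 or more in size, against 8.39% of all genes tested, and the genes were chosen on this comparison. In WT the same held for 5 of 10, against 9.33%. Between R882H and WT it was 5 of 10 under azacitidine, against 10.1%, and 3 of 10 under NaCl, against 6.95%. The difference between the azacitidine responses in R882H and WT was -2.99 for Xcr1 and -1.71 for Slc40a1, and -1.17 and -0.24 without the 1 high library of each gene. That comparison holds the one the genes were chosen on and is given with no test. The comparisons share libraries, and no gene list was tested as a set. The median log2 difference of the 10 genes was -1.01 for azacitidine in R882H and -0.57 in WT, against -0.04 and 0.01 over all genes. Without libraries 1 and 2 of R882H with NaCl the value in R882H was -1.09, against 0.0097 over all genes. It was 0.57 for R882H against WT under azacitidine and 0.76 under NaCl, against -0.02 and 0.03.

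No member of any of the 21 marker lists was called in any comparison (edgeR), with the same limit for Cd68, Slc40a1 and Xcr1. Of the marrow and island macrophage markers, 3 of 17 had a positive and 14 a negative log2 difference for azacitidine in R882H, with a median of -0.57. Without libraries 1 and 2 of R882H with NaCl that median was -0.63. In WT 6 were positive and 11 negative, with a median of -0.44. The most abundant on this list were Emb, Cd9 and Klf1, which erythroid cells or progenitors also express. Of 12 tested genes of C1q and early complement, 6 were positive and 6 negative in either genotype, with medians of -0.09 in R882H and -0.02 in WT. This list was led by Cfp (properdin), C1ra and Itgam.

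Pan-macrophage genes, led by Apoe, Tyrobp and Pld3, had medians of -0.02 for azacitidine in R882H and 0.17 in WT over 18 genes, and 0.42 in R882H without those 2 libraries. Lysosome and phagocytosis genes, led by Psap, Ctsb and Lamp1, had 0.02 and -0.10 over 19 genes, and -0.080 without them. Cd68 lay above these medians in both genotypes, at 0.75 and 0.57. In WT its difference was 0.23 without library 2 of WT with azacitidine. Since Cd68 was chosen on the R882H comparison, nothing is read from its place there. Its R882H difference was also smaller without libraries 1 and 2 of R882H with NaCl. Iron recycling genes, led by the ferritin subunits Fth1 and Ftl1 with Slc48a1, had -0.28 and -0.07 over 19 genes, and 0.14 in R882H without them, so the sign in R882H rests on these libraries.

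The type 1 dendritic cell list, led by Irf8, Wdfy4 and Id2, had medians of -1.07 for azacitidine in R882H and -0.04 in WT over 13 genes, and -0.34 in R882H without libraries 1 and 2 of R882H with NaCl. The type 2 list, led by Cd1d1, Sirpa and Clec10a, had 0.24 and 0.07 over 10 genes, and 0.63 in R882H over 11 genes without them. The plasmacytoid list, led by Tcf4, Bst2 and Smim5, had 0.14 and -0.26 over 16 genes. Genes of dendritic cell commitment, led by Flt3, Spi1 and Tcf4, had 0.02 and 0.09 over 17 genes. Class II antigen presentation, led by H2-DMa, Cd74 and H2-Ab1, had 0.02 and -0.61 over 17 genes, and -0.13 in R882H without libraries 1 and 2 of R882H with NaCl, where 6 were positive and 11 negative. The T and NK cell list had -1.65 and 0.35 over 16 genes, and the erythroid list had -2.62 and -0.36 over 15 genes. Without libraries 1 and 2 of R882H with NaCl these R882H medians were 0.73 for T and NK cells and 0.50 for erythroid cells, both with the opposite sign.

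For R882H against WT, the medians of the marrow and island macrophage list were 0.25 under azacitidine and 0.28 under NaCl. Those of C1q and early complement were 0.74 and 0.59, with 9 of 12 genes positive under each treatment. The type 1 dendritic cell list had -0.20 and 0.26, and the plasmacytoid list 0.22 and -0.21. Without libraries 1 and 2 of R882H with NaCl the medians under NaCl were 0.43 for early complement, with 7 of 12 genes positive, 0.12 for type 1 dendritic cells and -0.43 for the plasmacytoid list. The erythroid list had -0.45 under azacitidine and 1.70 under NaCl, where all 15 genes were positive. Without libraries 1 and 2 of R882H with NaCl the erythroid median under NaCl was -1.21, with all 15 genes negative, and the macrophage median was 0.50.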

How the data were processed

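RNA of sorted marrow cells was measured in 16 libraries. Per the submitters' processing notes, HISAT2 2.0.5, featureCounts 1.6.2 and edgeR 3.26.6 were used on GRCm38 (mm10). Each deposited count table lists unnormalised counts, of genes and of repeat families. In the deposited FPKM tables these counts are scaled by feature length, which the authors gave in bases, and by library size, with a ratio that was constant across features in every library. The strand setting and the treatment of reads with several positions are not given in the sources used here.

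Genes were filtered with filterByExpr, which left 18341 of 30141, and fitted with the quasi-likelihood test of edgeR 4.0.16 (R 4.3.3). TMM scaling and 1 coefficient per group were used for all 16 libraries, with Benjamini-Hochberg adjustment over all genes tested and a threshold of 0.05. The 1201 repeat families were left out. CPM are counts relative to the TMM-scaled total of each library. The fitting code was tested on simulated data. Alternatives were DESeq2 1.42.0, limma 3.58.1 (voom), no filter, other size factors, fits on the groups compared only, a replicate block, and leaving out libraries. Libraries of the same number deviated together between R882H and WT under NaCl, where the 4 pairs had correlations of 0.101 to 0.342. For azacitidine against NaCl in WT the 3 pairs were also positive, at 0.0492 to 0.345. The pairs had -0.119 to 0.117 for azacitidine against NaCl in R882H. For R882H against WT under azacitidine they had -0.124 to 0.0641. Exact binomial (Clopper-Pearson) intervals are at 95%, and intervals and zero-count limits cover counting error only, since amplified reads carry no molecular identifiers.

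The genes and the 21 marker lists were chosen with earlier results of these data known. Text values cover the 10 genes, the lists, up to 3 most abundant genes of a macrophage or dendritic cell list, and the 5 genes whose deviations from group means were most like those of the C1q mean, Slc40a1, Xcr1 and Siglech. Other marker genes were named after their values were seen.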

Additional observations from a re-analysis of the deposited data

Results flagged for a closer look

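In 30 groups of 4 or 5 libraries, 3 values lay further from the rest of their group than Dixon's 95% limit allows. Chance flags about 1 in 20 groups of normally distributed values, and these CPM were not checked for that distribution. All were single high libraries of R882H with NaCl. Slc40a1 and Xcr1 had been chosen on a comparison that includes these libraries, so for them this is a description and that rate does not apply. Slc40a1 had 113 CPM in library 2, where the erythroid markers summed to 11257 CPM. In library 1 these markers summed to 4134 CPM and Slc40a1 had 14.0 CPM. Xcr1 had 3.57 CPM and Siglech 3.45 CPM in library 1, where Cd3e had 24.2 CPM and Ccr9 28.5 CPM. No gene had every library of both genotypes moving in opposite directions.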

How the results depend on the processing

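The count of called genes among the 10 stayed at 0 in all comparisons, except for azacitidine against NaCl in R882H, on which genes had been chosen, so that nothing is read from it. There it was 2 by DESeq2 and 1 with libraries numbered 3 to 5 alone, a split drawn after the C1q levels were seen. Leaving out each library in turn gave 0 in every fit. The replicate block called 0 of the 10 genes in every comparison. Over all genes it called 0 instead of 1 for azacitidine against NaCl in R882H and for R882H against WT under azacitidine. Among libraries of the other groups, 6 of 16 libraries correlated best with one of their own number. The number expected by chance was not computed, so nothing is read from this. Over all genes DESeq2 called 97 (0.628% of 15457), 53 and 12 for azacitidine in R882H, in WT and their difference, and 21 and 28 for R882H against WT under azacitidine and NaCl. In R882H, libraries 1 and 2 alone gave 53 calls (0.288%) and libraries 3 to 5 alone 233 (1.24%), against 1 (0.00545%) with all.

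Of 1250 alternative log2 differences of the 10 genes, 1183 kept their direction and side of the threshold, 3 passed it and 64 turned sign, 8 of them with another fit of all libraries. With limma-voom, azacitidine gave C1qb 0.74 in R882H and Siglech 1.39 in WT, the difference between responses was -0.34 for C1qa, and R882H against WT under NaCl gave Siglech 1.12. With the replicate block, azacitidine in R882H gave C1qb 0.89, C1qc 1.15 and Vcam1 0.10, and R882H against WT under NaCl gave Siglech 0.34. The other turns came from leaving libraries out, the cause was not tested, and none of these values but 1 (C1qb, -2.17 in R882H, libraries 3 to 5) and the 2 DESeq2 calls passed the threshold.

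With libraries 1 and 2 alone, azacitidine in R882H gave C1qa 0.37, C1qb 2.02, C1qc 1.48 and Vcam1 1.27, and in WT Adgre1 0.98, C1qa 1.40, C1qb 0.56 and C1qc 2.36. The difference between responses was -1.24 for Adgre1, -1.03 for C1qa and -0.87 for C1qc, and Cd68 in R882H against WT under NaCl was -0.28. Among libraries 3 to 5, WT with azacitidine had only library 3, so values that use that group rest on 1 library. With libraries 3 to 5 alone, azacitidine in WT gave Siglech 1.5, with 0 reads in library 3 of WT with NaCl, and Xcr1 -0.74. The difference between responses there was -1.24 for C1qa, -0.65 for C1qb, -1.37 for C1qc and 0.25 for Xcr1. R882H against WT there gave C1qa -0.86, C1qc -0.88 and Xcr1 0.26 under azacitidine, and Adgre1 -1.08 and Siglech 1.33 under NaCl. Without libraries 1 and 2 of R882H with NaCl, azacitidine in R882H gave Adgre1 0.50, the difference between responses was -0.32 for C1qa, -0.22 for C1qc and -0.070 for Cd68, and R882H against WT under NaCl gave Adgre1 -0.31 and Xcr1 -0.091.

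Leaving out 1 library at a time turned the sign of 17 differences. Azacitidine in R882H ran from -0.63 to 0.30 for Adgre1, -1.14 to 0.095 for C1qb, -1.16 to 0.11 for C1qc and -1.11 to 0.27 for Vcam1, and in WT from -0.85 to 1.07 for Siglech. The difference between responses ran from -0.20 to 1.06 for Adgre1, -0.29 to 3.35 for C1qa, -0.26 to 3.70 for C1qc and -0.016 to 0.52 for Cd68. R882H against WT under NaCl ran from -0.11 to 1.08 for Adgre1, -0.035 to 1.33 for C1qa, -0.0080 to 1.49 for C1qb, -0.13 to 1.52 for C1qc, -0.21 to 1.23 for Vcam1, -0.10 to 0.15 for Cd68 and -1.20 to 1.22 for Siglech. Under azacitidine it ran from -0.999 to 0.20 for Mrc1.

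Depth limits all genes but Cd68 and Slc40a1, whose libraries held at least 638 and 206 reads, while 6 others had 0 reads in 1 or 2 libraries. WT with azacitidine had 3 libraries, and without library 3 its C1qc difference was -4.46, against -0.50 without library 3 of WT with NaCl.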
